A study of Rattus norvegicus with 18 samples.

Results

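Solute carriers are the membrane proteins that move amino acids, sugars, ions, metals, vitamins, and transmitters into and out of cells and organelles. In dorsal root ganglia (DRGs), the clusters of sensory neurons beside the spinal cord, 61 transcripts with a solute carrier symbol were followed in naive, sham, and total knee arthroplasty (TKA) rats. They belong to 60 genes, since *Slc8a2* was counted as 2 transcripts. The deposited table has no gene names, so a transcript could be a member only if the study's own result tables, in the shortened copy used here, gave it a symbol of Slc and a digit. The counts cover 41078 transcripts. A name was given to 3837, such a symbol to 78, and 61 of the 78 had a mean of at least 20 counts over the 18 rats. *Slc4a1ap* and *Slc7a6os* carry a solute carrier's name but are not carriers, which leaves 59 carriers or carrier subunits.

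The names come from tables that the study sorted by its own test of the same rats. The list for TKA against sham rats named 52 of the 61, 44 of them alone, the list for sham against naive rats named 10, and the list for TKA against naive rats named 9. So the members were chosen by a test of these group differences and by their mean count, and group differences are given below as descriptions that support nothing by themselves. Differences between the sexes and relations among naive and sham rats were not used in the choice and were tested. The comparison of the sexes takes in the TKA rats, which the choice used, so it is also given for naive and sham rats alone.

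The transport proteins work in families with fixed cargo. Some exchange cargo across the membrane, as the large neutral amino acid transporter LAT1 (*Slc7a5*, joined to the CD98 heavy chain *Slc3a2*) does, and others use the sodium or proton gradient to load the cell. In sensory neurons the chloride loader NKCC1 (*Slc12a2*) helps to keep intracellular chloride high, the vesicular transporter VGLUT2 (*Slc17a6*) fills synaptic vesicles with glutamate, and satellite glia and Schwann cells around the neurons take up amino acids, glucose, and ions through carriers of their own.

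Each group held 6 Sprague Dawley rats, 3 labelled male and 3 female. Naive rats had no procedure, sham rats had anesthesia, an incision of the skin and sutures, and TKA rats had anesthesia and a full knee replacement, both on the left knee. DRGs of the left levels L3 and L4 were taken 24 h after surgery and their mRNA was sequenced, 1 library a rat. Whole ganglia hold neurons, glia, vessels, and connective tissue, and the age of the rats is not given in the sources used here.

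Promoters are shown for the LAT1 pair and for the sodium-proton exchanger *Slc9a3*, which are 3 of the 6 genes whose TKA rats all lay above the naive rats. The sequences are RefSeq's, on the assembly GRCr8, and run from 250 bases before to 50 bases after the annotated start. Capitals mark CACGTG, an E-box. Of the 3 motifs searched it was the one found in these 4 windows.
*Slc7a5* (chr19:66872363-66872662, minus strand): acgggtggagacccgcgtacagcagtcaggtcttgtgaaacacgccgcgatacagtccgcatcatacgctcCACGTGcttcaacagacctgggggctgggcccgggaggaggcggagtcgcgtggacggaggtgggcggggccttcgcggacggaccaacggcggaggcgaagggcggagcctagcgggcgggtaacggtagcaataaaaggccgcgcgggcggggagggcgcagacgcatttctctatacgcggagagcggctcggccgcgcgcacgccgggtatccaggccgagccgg
*Slc3a2*, upstream start (chr1:215048015-215048314, minus strand): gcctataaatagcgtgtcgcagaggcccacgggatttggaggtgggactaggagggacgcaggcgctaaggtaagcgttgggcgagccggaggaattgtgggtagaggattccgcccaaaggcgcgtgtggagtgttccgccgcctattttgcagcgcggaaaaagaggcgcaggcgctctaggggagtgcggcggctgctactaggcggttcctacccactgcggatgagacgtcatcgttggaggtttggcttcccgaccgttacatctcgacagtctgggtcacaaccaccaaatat
*Slc3a2*, downstream start (chr1:215039621-215039920, minus strand): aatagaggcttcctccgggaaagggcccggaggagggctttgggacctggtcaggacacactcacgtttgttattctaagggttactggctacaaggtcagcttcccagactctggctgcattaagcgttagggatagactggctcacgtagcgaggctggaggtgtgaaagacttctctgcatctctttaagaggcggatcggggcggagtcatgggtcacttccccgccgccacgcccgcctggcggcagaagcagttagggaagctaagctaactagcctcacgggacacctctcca
*Slc9a3* (chr1:30995953-30996252, minus strand): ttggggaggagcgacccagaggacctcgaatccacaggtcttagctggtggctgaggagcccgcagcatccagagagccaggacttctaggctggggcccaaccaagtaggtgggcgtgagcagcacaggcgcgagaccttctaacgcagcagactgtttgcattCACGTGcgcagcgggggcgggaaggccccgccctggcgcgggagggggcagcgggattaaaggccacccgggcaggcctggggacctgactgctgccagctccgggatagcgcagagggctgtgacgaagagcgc
The E-box began 179 bases before the start of *Slc7a5* and 85 bases before that of *Slc9a3*, and neither *Slc3a2* window held one. Of the 60 genes 48 had promoters in the RefSeq table, 50 windows in all. CACGTG, the same on both strands, occurred in windows of 7 of these genes (*Slc7a5*, *Slc9a3*, *Slc12a7*, *Slc12a9*, *Slc25a48*, *Slc26a2*, and *Slc35a5*) and in 6.42% of all 33469 rat windows. TGATGNAA, read on both strands, a composite site of ATF4 and C/EBP that occurs near genes of the amino acid response, was found in the window of 1 gene, *Slc38a1*, and in 3.98% of all windows. CCAAT on either strand was found for 18 genes and in 37.5% of all windows. These matches are letters in a window, and binding was not measured.

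Total counts per rat ran from 20230562 to 29343899. A pair of TKA libraries stood apart. TKA rat 2 held 10860 summed CPM (counts scaled to a common library size) over 11 skeletal muscle markers, against at most 298 in naive and 742 in sham rats, and was the highest of 18 rats in 11 of 11 of them. TKA rats 3 and 6 held 1227 and 1289 CPM over the muscle markers, also above all naive and sham rats, and the other TKA rats at most 249. Over 14 markers of myelinating Schwann cells it held 99000 CPM and TKA rat 6 held 55520, and no other rat exceeded 19420. The 6 neuron markers, which include the neurofilaments, summed to 17160 CPM in TKA rat 2 and 21700 in TKA rat 6, below the 35700 to 47190 of naive and the 34520 to 44340 of sham rats. TKA rats 1 and 5, at 29120 and 30460 CPM, also lay below those ranges. Most of this sum is neurofilament RNA: in TKA rat 2 *Nefl*, *Nefm*, and *Nefh* gave 5632, 5827, and 5618 CPM of it. The scarcer markers did not all go that way. *Isl1* had a TKA median of 62.8 CPM, against at least 86.9 in naive and 79.0 in sham rats. *Calca* had a TKA median of 668.6 CPM, against at most 627.9 in naive and 606.5 in sham rats. TKA rat 2 was the lowest rat for the neurofilaments, *Calca*, and *Isl1* and the highest for *Ntrk3*, at 5.14 CPM. No marker of the 8 lists was at 0 in all naive rats, and the neuron markers of the labelled tissue were present in every library. TKA rat 4, labelled female, had 3472 counts over 3 transcripts that were at 3097 to 5025 in rats labelled male and at most at 1 in the other females, so its sex label goes against its counts. For the members, differences that TKA rats 2 and 6 move by over 1.5 times or turn are given with and without them.

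**Figure D1:**
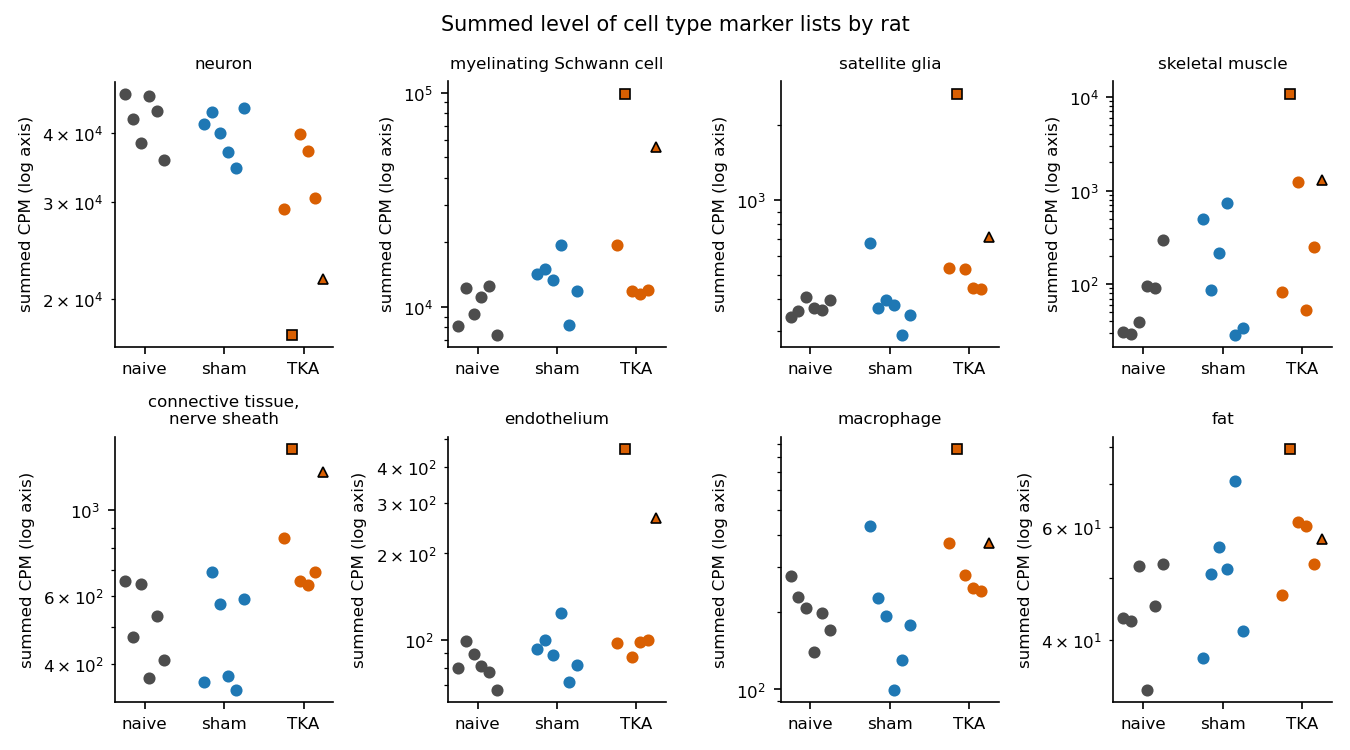
Summed CPM of 8 marker lists in each rat, on log axes, for naive, sham, and TKA groups, with TKA rat 2 as a square and TKA rat 6 as a triangle. TKA rat 2 is the highest rat for every list except neuron markers, where it is the lowest at 17160 CPM.

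Over all 61 transcripts, 41 were higher and 20 lower in TKA than in sham rats, with a median log2 fold-change of 0.37. Over the 15320 transcripts tested, 51.5% were higher and the median was 0.011. Against naive rats 40 were higher and 21 lower, with a median of 0.45, where 52.2% of 15170 transcripts were higher with a median of 0.020. Both contrasts use the same 6 TKA rats. The excess of higher values was carried unevenly: relative to the sham mean, the median over the 61 was 0.85 in TKA rat 2, 0.33 in TKA rat 6, and between 0.030 and 0.18 in the other 4. Without TKA rats 2 and 6 the median was 0.13 against sham and 0.20 against naive rats. In bulk tissue a smaller share of cells of a type and less RNA per cell cannot be told apart.

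None of the 61 transcripts passed an adjusted p of 0.05 with at least a 1.5-fold difference in edgeR's quasi-likelihood test. This was so against sham rats, where 0% of all transcripts passed, and against naive rats, where 0.0857% passed. At an unadjusted p under 0.05 there were 28 against sham (8.84% of all transcripts) and 38 against naive rats (17.2%), shares that the way of naming shapes. DESeq2 without a prior called 0 of the 61 against sham (0.418% of all transcripts) and 8 against naive rats (2.83%), and voom called 0 (0.00653%) and 1 (0.811%). With a prior DESeq2 called 0 (0.379%) and 6 (2.27%). The 8 were *Slc1a5*, *Slc7a5*, *Slc9a3*, *Slc20a2*, *Slc25a34*, *Slc36a2*, *Slc38a3*, and *Slc39a1*, and the 1 of voom was *Slc7a6os*. Against naive rats edgeR called 2 with all 3 groups in one fit (0.723% of all transcripts), 2 without TKA rat 5 (0.234%), and 1 without TKA rats 2 and 6 (0.668%).

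**Figure D2:**
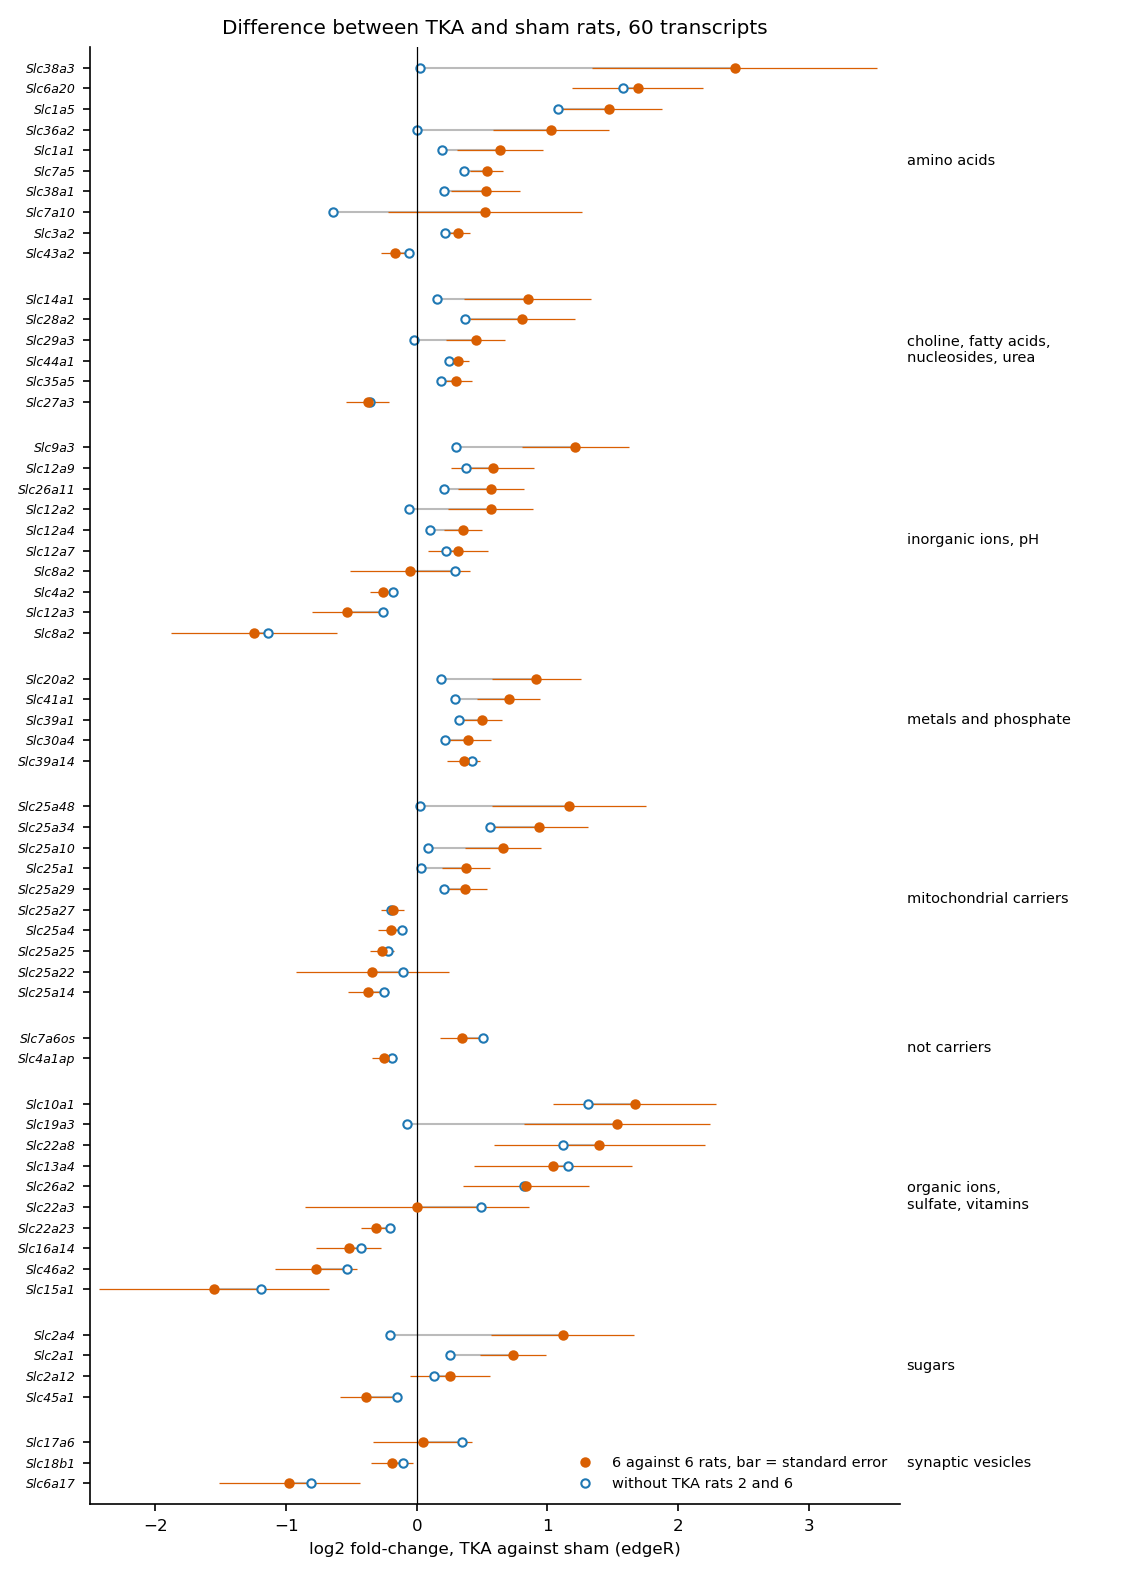
Log2 fold-change of TKA against sham rats for 60 of the transcripts, by class, with filled points and standard error bars for 6 against 6 rats and open points without TKA rats 2 and 6. The largest shift is that of *Slc38a3*, from 2.43 to 0.027. Of the 2 rows of *Slc8a2* the upper is the more abundant transcript.

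Amino acid carriers had the highest median difference of the 9 classes with all rats. TKA levels exceeded sham levels for 9 of 10 transcripts and naive levels for 9, with medians of 0.59 and 0.74, and 5 and 7 of them differed by at least 1.5-fold. Without TKA rats 2 and 6 the medians were 0.20 and 0.41, below the 0.29 and 0.43 of carriers of metals and phosphate, and 2 and 1 were higher by at least 1.5-fold. Without TKA rat 2 alone the medians against naive rats were 0.34 for amino acid carriers and 0.45 for carriers of metals and phosphate. Values of both LAT1 chains were higher after TKA, and so was the glutamine carrier *Slc1a5*, and in these the other 4 TKA rats also lay high.

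*Slc7a5* (ENSRNOT00000025784), the chain of LAT1 that carries leucine and other large neutral amino acids, measured 103 to 126 (median 112) CPM in naive, 104 to 131 (median 119) in sham, and 138 to 205 (median 170.5) in TKA rats. The lowest TKA rat lay above the highest rat of both other groups. The difference was 0.54 ± 0.12 (log2, standard error) from sham and 0.59 ± 0.12 from naive rats, and without TKA rats 2 and 6 it was 0.36 and 0.43. Its partner *Slc3a2* (ENSRNOT00000025196), the heavy chain that brings LAT1 to the cell surface, ran 186 to 205 (median 200.1) CPM in naive, 176 to 227 (median 207) in sham, and 222 to 283 (median 259) in TKA rats. TKA and naive rats did not overlap, while the highest sham rat, at 227 CPM, lay above the 2 lowest TKA rats. The *Slc3a2* difference was 0.32 ± 0.094 from sham and 0.37 ± 0.085 from naive rats, with 0.22 and 0.29 left without TKA rats 2 and 6.

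*Slc1a5* (ENSRNOT00000021455), the exchanger ASCT2 of glutamine and other neutral amino acids, was scarce, with 0.509 to 2.495 (median 1.203) CPM in naive, 0.359 to 1.73 (median 1.49) in sham, and 2.103 to 6.28 (median 3.41) in TKA rats. All 6 TKA rats lay above all 6 sham rats, and 1 naive rat, at 2.495 CPM, lay among the TKA rats. The difference was 1.47 ± 0.41 from sham rats and 1.08 without TKA rats 2 and 6, so it stayed above 1.5-fold in the 4 others.

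*Slc38a3*, the sodium-coupled glutamine carrier SNAT3, had the widest range of the class as a ratio of the highest to the lowest rat. It measured 1.09 to 5.603 (median 2.61) CPM in naive, 0.269 to 16.01 (median 1.895) in sham, and 2.39 to 98.6 (median 5.09) in TKA rats. TKA rat 2 gave the 98.6, TKA rat 6 16.8, and sham rat 1 16.01, and every other rat was at 5.603 CPM or below. The difference from sham rats went from 2.43 ± 1.09 to 0.027 without TKA rats 2 and 6.

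*Slc36a2*, a proton-coupled carrier of glycine and proline, measured 16.8 to 36.99 (median 27.9) CPM in naive, 25.7 to 64.8 (median 37.7) in sham, and 35.1 to 202 (median 42.5) in TKA rats, with its top values again in TKA rat 2 and, at 113 CPM, TKA rat 6. Its difference from sham rats was 1.03 ± 0.45 with and -0.0001 without them, and from naive rats 1.54 ± 0.44 and 0.53. The glutamate carrier *Slc1a1* (EAAT3) and the serine and glycine exchanger *Slc7a10* were also highest in TKA rat 2, with 46.9 and 51.8 CPM and at most 17.3 and 8.41 in the other TKA rats. Sham rat 1 was next, at 18.4 and 27.7 CPM, and TKA rat 6 was at 12.1 and 3.87. *Slc7a10* turned from 0.53 to -0.64 against sham rats without TKA rats 2 and 6, and was at 1.24 without sham rat 1. *Slc38a1*, another glutamine carrier, differed by 0.53 ± 0.26 from sham rats and by 0.21 without the pair.

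*Slc6a20*, which carries proline, measured 1.73 to 8.14 (median 5.35) CPM in naive, 1.08 to 4.49 (median 2.58) in sham, and 2.11 to 15.5 (median 7.48) in TKA rats. Its sham rats were the low group, -1.04 ± 0.41 against naive rats, and TKA rats were 1.69 ± 0.50 above them and 0.65 ± 0.48 above naive rats, the latter 0.33 without TKA rat 2. The 4.49 CPM of the highest sham rat lay above 2 of the TKA rats. *Slc43a2*, a carrier of large neutral amino acids by facilitated diffusion, was the member of the class with lower values in TKA rats. It measured 111 to 133 (median 125) CPM in naive, 94.5 to 120 (median 102) in sham, and 74.7 to 113 (median 93.5) in TKA rats, a difference of -0.25 ± 0.071 for sham and -0.41 ± 0.11 for TKA against naive rats, and the groups overlapped.

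**Figure D3:**
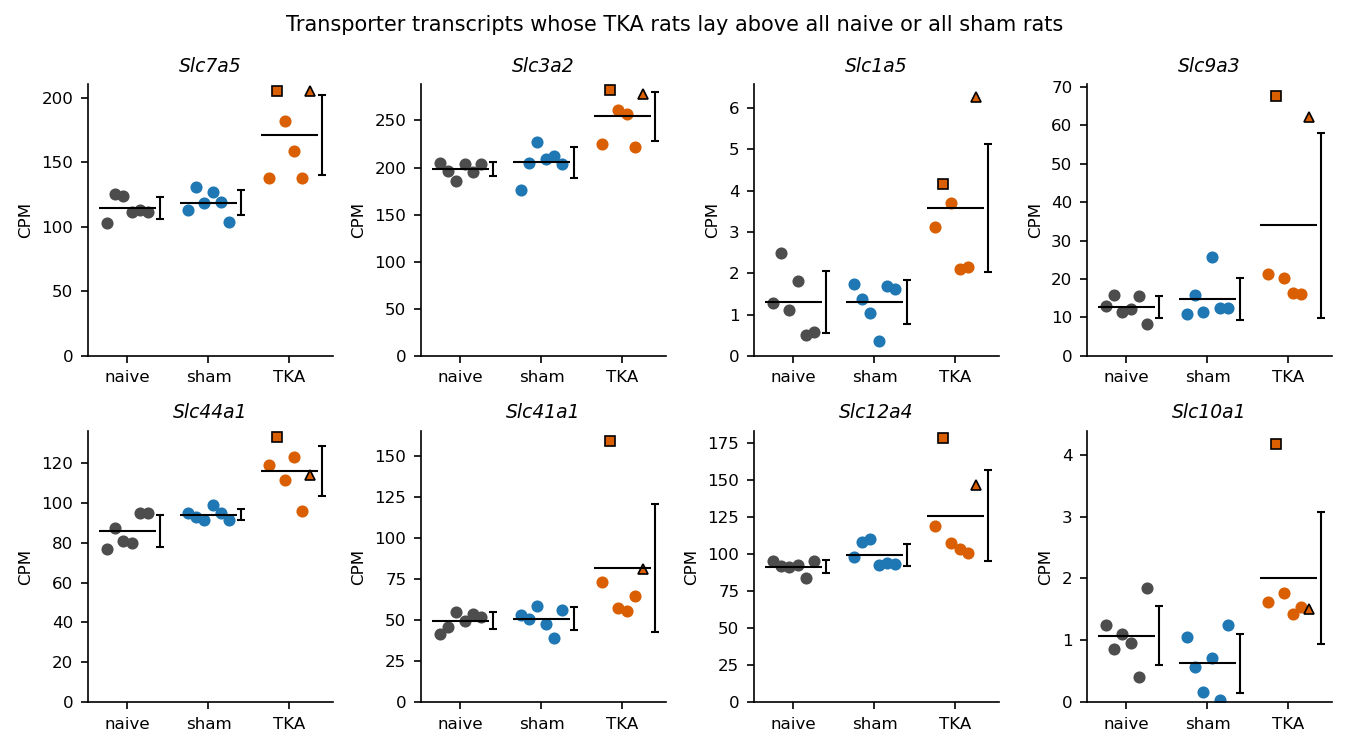
CPM in each rat for 8 transcripts whose 6 TKA rats all lay above the 6 naive or the 6 sham rats, with horizontal lines at group means, bars for 1 SD beside them, TKA rat 2 as a square, and TKA rat 6 as a triangle. The lowest TKA rat of *Slc7a5*, at 138 CPM, is above the highest sham rat, at 131 CPM.

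Groups that did not overlap were few. All 6 TKA rats lay above all 6 sham rats for 3 of the 61 transcripts, *Slc1a5*, *Slc7a5*, and *Slc10a1*, beside 0.444% of all transcripts. They lay above all 6 naive rats for 6, *Slc3a2*, *Slc7a5*, *Slc9a3*, *Slc12a4*, *Slc41a1*, and *Slc44a1*, beside 1.16% of all. No member had all TKA rats below all sham or all naive rats, beside 0.352% and 1.42% of all transcripts. The naming used these contrasts, so the counts describe the members only.

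Carriers of inorganic ions and protons were split. Of 11 transcripts 6 were higher and 5 lower in TKA than in sham rats (median 0.32), and 7 were higher and 4 lower than in naive rats (median 0.15). Without TKA rats 2 and 6 the medians were 0.10 and 0.12. Among the lower against sham rats were the anion exchanger *Slc4a2*, the sodium-chloride carrier *Slc12a3*, and both transcripts of the calcium exchanger *Slc8a2*, of which the more abundant turned without TKA rat 2.

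*Slc12a2*, the chloride loader NKCC1, measured 154 to 211 (median 185) CPM in naive, 145 to 304 (median 186) in sham, and 189 to 619 (median 213) in TKA rats. The highest value was that of TKA rat 2, and TKA rat 6 followed at 399 CPM. The difference of 0.57 ± 0.32 from sham rats became -0.056 without them. *Slc12a4*, the potassium-chloride exporter KCC1, ran 83.9 to 95.4 (median 92.3) CPM in naive, 92.9 to 110.3 (median 96.1) in sham, and 101 to 179 (median 114) in TKA rats, which all lay above the naive rats. Its difference from naive rats was 0.48 ± 0.14, and 0.24 without TKA rats 2 and 6. The related *Slc12a7* (KCC4) and *Slc12a9* differed from sham rats by 0.32 and 0.58, and by 0.22 and 0.38 without TKA rats 2 and 6. *Slc12a3*, the thiazide-sensitive sodium-chloride carrier, was at -0.53 with all rats and -0.26 without the pair, with its lowest value, 4.48 CPM, in TKA rat 2.

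*Slc9a3* (ENSRNOT00000020711), the sodium-proton exchanger NHE3 best known from gut and kidney, measured 8.29 to 15.9 (median 12.7) CPM in naive, 10.96 to 25.6 (median 12.6) in sham, and 16.1 to 67.7 (median 20.7) in TKA rats. TKA rats 2 and 6 stood at 67.6 and 62.2 CPM and the other 4 between 16.1 and 21.3, still above the highest naive rat at 15.9. The difference from naive rats was 1.43 ± 0.39 with and 0.54 without the pair. *Slc4a2*, an exchanger of chloride and bicarbonate, measured 149.6 to 200.4 (median 185) CPM in naive, 164 to 201 (median 184) in sham, and 124 to 179 (median 154) in TKA rats (-0.26 ± 0.10 against sham), and the groups overlapped.

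*Slc8a2*, a sodium-calcium exchanger of neurons, was counted as 2 transcripts that did not move alike. The scarcer, ENSRNOT00000086396, measured 0.741 to 1.87 (median 1.096) CPM in naive, 0.529 to 1.96 (median 1.29) in sham, and 0.0478 to 1.04 (median 0.585) in TKA rats, a difference of -1.25 ± 0.63 from sham rats that was -1.14 without TKA rats 2 and 6. The other, ENSRNOT00000047289, differed by -0.051 ± 0.46 from sham rats, by 0.18 without TKA rat 2, and by 0.30 without TKA rats 2 and 6, with 0.713 CPM in TKA rat 2 and at least 6.15 in the other TKA rats. Where reads match both isoforms the counting may have divided or dropped them, which leaves single isoforms uncertain. *Slc26a11*, a carrier of sulfate and chloride, differed by 0.57 ± 0.25 from sham rats and by 0.21 without the pair.

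All 5 carriers of metals and phosphate were higher in TKA than in sham and in naive rats, with medians of 0.50 and 0.63, and 0.29 and 0.43 without TKA rats 2 and 6. *Slc20a2*, the phosphate carrier PiT2, measured 31.3 to 48.8 (median 39.2) CPM in naive, 33.8 to 58.4 (median 46.3) in sham, and 47.1 to 197 (median 57.2) in TKA rats. Its top was in TKA rat 2, with 105 CPM in TKA rat 6. The difference from naive rats was 1.15 ± 0.34, and 0.43 without these.

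*Slc39a1*, the zinc importer ZIP1, measured 58.3 to 68.5 (median 62.4) CPM in naive, 58.5 to 80.9 (median 69.5) in sham, and 61.8 to 128 (median 99.4) in TKA rats. TKA rat 5 was low, at 61.8 CPM, among the naive rats, and the other 5 were above all naive rats. The difference was 0.63 ± 0.14 from naive rats and 0.48 without TKA rats 2 and 6. *Slc41a1*, a magnesium carrier, ran 41.8 to 55.1 (median 50.8) CPM in naive, 39.3 to 58.8 (median 52.1) in sham, and 55.98 to 159 (median 69.1) in TKA rats, with no overlap of TKA and naive rats and a difference of 0.74 ± 0.23 that was 0.43 without TKA rat 2 and 0.35 without TKA rats 2 and 6. The zinc exporter *Slc30a4* and the zinc, iron, and manganese importer *Slc39a14* differed from sham rats by 0.39 and 0.36, and by 0.22 and 0.42 without TKA rats 2 and 6.

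**Figure D4:**
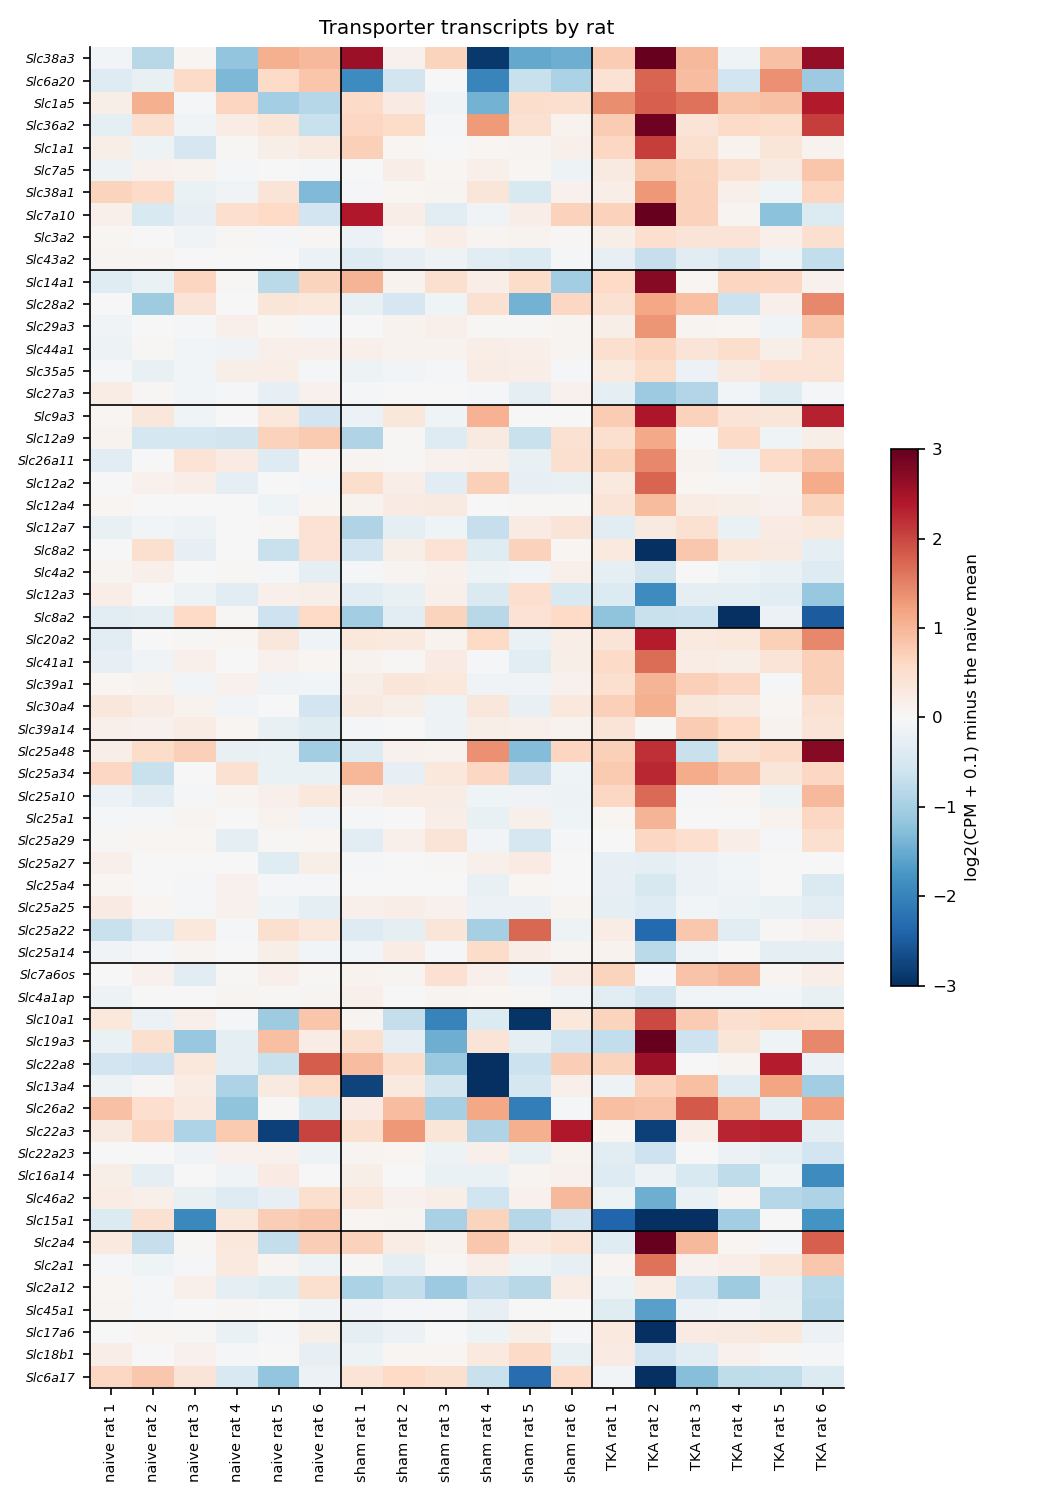
Log2 of CPM plus 0.1 in each of the 18 rats, less the mean of the naive rats, for 60 of the transcripts in the order of the plot of TKA against sham rats, with white at the naive mean and colors ending at 3 in either direction. TKA rat 2 is the deepest column in both directions and is the highest of 18 rats in 30 rows.

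Sugar carriers gave 3 of 4 higher values against sham and 2 of 4 against naive rats, with medians of 0.50 and 0.14. Without TKA rats 2 and 6 the medians were -0.0065 and -0.018. *Slc2a1*, the basal glucose transporter GLUT1, measured 36.97 to 50.2 (median 39.9) CPM in naive, 34.2 to 46.96 (median 39.3) in sham, and 43.7 to 128 (median 50.3) in TKA rats, with 71.9 CPM in TKA rat 6 behind TKA rat 2. Its difference from sham rats was 0.74 ± 0.25, and 0.25 without them. *Slc2a4*, the insulin-responsive GLUT4 of muscle and fat, measured 2.78 to 7.803 (median 5.203) CPM in naive, 4.93 to 8.16 (median 5.94) in sham, and 3.54 to 42.5 (median 7.01) in TKA rats. The 42.5 CPM belonged to TKA rat 2, the library with the highest muscle markers, and 16.1 CPM to TKA rat 6. Without the pair the difference from sham rats went from 1.12 ± 0.55 to -0.20. The part of muscle RNA in it was not tested.

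*Slc45a1*, a proton-linked sugar carrier found in brain, was lower, with 148 to 170.5 (median 163) CPM in naive, 136 to 161 (median 155) in sham, and 51.9 to 149 (median 132) in TKA rats. TKA rat 2 had the lowest value and the next TKA rat 89.4 CPM. The difference from sham rats was -0.39 ± 0.20, and -0.15 without TKA rats 2 and 6. *Slc2a12*, a further glucose transporter, was -0.64 in sham and -0.39 in TKA against naive rats.

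Of 3 transporters of synaptic vesicles, 1 was higher and 2 were lower after TKA than after sham surgery. *Slc17a6*, VGLUT2, which loads glutamate in most sensory neurons, measured 192 to 250.3 (median 224) CPM in naive, 182 to 251 (median 207) in sham, and 25.6 to 276 (median 266) in TKA rats. The value of 25.6 CPM was that of TKA rat 2, and TKA rat 6 was next at 195, whereas TKA rats 1, 3, 4, and 5 were higher than all naive and sham rats. The group difference from sham rats was 0.045 ± 0.38 with the 6 TKA rats, 0.35 without TKA rats 2 and 6, and -0.038 without TKA rat 5. *Slc6a17*, a vesicular carrier of neutral amino acids, measured 2.04 to 8.299 (median 5.17) CPM in naive, 0.885 to 7.18 (median 6.51) in sham, and 0.356 to 4.46 (median 2.75) in TKA rats, a difference of -0.98 ± 0.54 from sham rats and -0.81 without TKA rats 2 and 6. *Slc18b1*, the vesicular polyamine carrier, ran 22.8 to 31.3 (median 26.9) CPM in naive, 23.3 to 40.4 (median 28.3) in sham, and 18.3 to 32.2 (median 26.8) in TKA rats, and the groups overlapped.

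Mitochondrial carriers divided evenly, 5 higher and 5 lower against sham and against naive rats, with medians of 0.091 and 0.15, and of -0.040 and 0.091 without TKA rats 2 and 6. *Slc25a4*, the ADP/ATP carrier of heart, muscle, and neurons, measured 964 to 1093 (median 986) CPM in naive, 864 to 1053 (median 1000) in sham, and 718 to 998 (median 872) in TKA rats, a difference of -0.20 ± 0.10 from sham rats and -0.11 without TKA rats 2 and 6. Its lowest value of 18 was in TKA rat 2, the rat with the highest muscle markers. *Slc25a1*, which exports citrate for lipid synthesis, was highest in the same library, with 140.2 to 159.9 (median 148) CPM in naive, 127 to 172 (median 146) in sham, and 147 to 303 (median 158) in TKA rats, and its difference of 0.38 ± 0.18 became 0.034 without the pair.

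*Slc25a34*, a carrier whose cargo is not settled, measured 2.02 to 5.09 (median 3.02) CPM in naive, 1.98 to 6.54 (median 3.54) in sham, and 4.21 to 15.98 (median 5.91) in TKA rats, 1.13 ± 0.35 against naive rats and 0.77 without TKA rats 2 and 6. *Slc25a48*, linked to mitochondrial choline import, measured 0.927 to 3.38 (median 2.04) CPM in naive, 0.759 to 5.38 (median 2.2) in sham, and 1.24 to 14.1 (median 3.21) in TKA rats. Here TKA rat 6 was the highest, ahead of 9.57 CPM in TKA rat 2, and the difference from naive rats was 1.39 ± 0.54 with and 0.26 without them. The dicarboxylate carrier *Slc25a10* was at 0.66 against sham rats, 0.30 without TKA rat 2, and 0.09 without TKA rats 2 and 6. The carrier of basic amino acids *Slc25a29* was at 0.37 and, without the pair, 0.21. The ATP-Mg carrier *Slc25a25* (-0.26) and the uncoupling protein relatives *Slc25a14* (-0.37) and *Slc25a27* (-0.18) had lower values than in sham rats. The glutamate carrier *Slc25a22* was at -0.34 ± 0.59 with all rats, -0.11 without TKA rats 2 and 6, and 0.26 without sham rat 5, whose 4.05 CPM stood above the other sham rats at 1.53 or below.

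Among 10 carriers of organic ions, sulfate, and vitamins, 6 were higher and 4 lower in TKA than in sham rats (median 0.42, and 0.21 without TKA rats 2 and 6), and 5 of the 6 differed by at least 1.5-fold. In 4 of these, *Slc10a1*, *Slc13a4*, *Slc22a8*, and *Slc26a2*, the difference stayed above 1.5-fold without TKA rats 2 and 6. *Slc13a4*, a sodium-coupled sulfate carrier, measured 7.62 to 21.6 (median 15.8) CPM in naive, 0.852 to 17.7 (median 9.94) in sham, and 7.01 to 33.02 (median 18.2) in TKA rats. Sham rats 1 and 4 were lowest, at 2.02 and 0.852 CPM, and TKA rat 6 was the lowest TKA rat. The difference from sham rats was 1.04 ± 0.60 and from naive rats 0.35 ± 0.35, the latter 0.13 without TKA rat 5.

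*Slc10a1*, the bile acid carrier NTCP known from liver, was at 0.417 to 1.85 (median 1.03) CPM in naive, 0.0421 to 1.25 (median 0.641) in sham, and 1.43 to 4.17 (median 1.58) in TKA rats. Its TKA and sham rats did not overlap at a mean of 28.1 counts a rat. The difference was 1.67 ± 0.62 from sham and 0.92 ± 0.42 from naive rats, and 1.31 and 0.57 without TKA rats 2 and 6. *Slc22a8*, the organic anion carrier OAT3, differed by 1.40 ± 0.81 from sham rats, with 15.7 CPM in TKA rat 2, 13.5 in TKA rat 5, and at most 4.08 in the other TKA rats, while naive rat 6 was at 9.17. *Slc26a2*, a sulfate carrier, differed by 0.84 ± 0.48.

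*Slc19a3*, a thiamine carrier, was far higher in 1 library than elsewhere, with 0.356 to 1.76 (median 0.924) CPM in naive, 0.262 to 1.298 (median 0.721) in sham, and 0.5 to 7.94 (median 1.003) in TKA rats. TKA rat 2 gave the top value, and the difference from sham rats of 1.53 ± 0.71 was 0.50 without it and -0.072 without TKA rats 2 and 6. *Slc15a1*, the peptide carrier PEPT1, was lower, with 0.267 to 2.34 (median 1.73) CPM in naive, 0.611 to 2.11 (median 1.12) in sham, and 0 to 1.31 (median 0.234) in TKA rats, -1.55 ± 0.88 against sham rats, -1.19 without TKA rats 2 and 6, and -2.47 without TKA rat 5.

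*Slc22a23*, a carrier without a settled cargo, measured 191 to 233 (median 213) CPM in naive, 182 to 238 (median 224) in sham, and 137 to 214 (median 174) in TKA rats (-0.31 ± 0.12 against sham, and -0.20 without TKA rats 2 and 6). The groups overlapped. *Slc16a14* of the monocarboxylate family (-0.52) and *Slc46a2* (-0.77) were also lower against sham rats, and the cation carrier *Slc22a3* was at 0.0016 ± 0.86 there, with 0.49 without TKA rats 2 and 6, -0.48 without TKA rat 5, and 0.52 without sham rat 6.

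Of the 6 carriers of choline, fatty acids, nucleosides, nucleotide sugars, and urea, 5 were higher than in sham and than in naive rats, with medians of 0.38 and 0.48, and of 0.17 and 0.24 without TKA rats 2 and 6. *Slc44a1*, which brings choline into cells for membrane lipids, measured 76.95 to 95.02 (median 83.9) CPM in naive, 91.2 to 98.6 (median 93.7) in sham, and 95.7 to 133 (median 116) in TKA rats. TKA and naive rats did not overlap, and the difference of 0.45 ± 0.10 was 0.39 without TKA rats 2 and 6. *Slc14a1*, the urea carrier UT-B, measured 4.12 to 11.7 (median 7.002) CPM in naive, 3.54 to 14.9 (median 9.36) in sham, and 7.67 to 49.2 (median 11.2) in TKA rats. Its second TKA value was 11.6 CPM, so that the difference from sham rats went from 0.85 ± 0.48 to 0.086 without TKA rat 2.

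*Slc28a2*, a sodium-coupled nucleoside carrier, measured 1.63 to 4.67 (median 3.96) CPM in naive, 1.26 to 5.51 (median 3.13) in sham, and 2.199 to 9.67 (median 5.75) in TKA rats (0.81 ± 0.40 against sham, and 0.37 without TKA rats 2 and 6). *Slc35a5*, of the nucleotide sugar family, ran 30.1 to 39.9 (median 33.9) CPM in naive, 31.5 to 40.6 (median 33.9) in sham, and 31.1 to 51.2 (median 44.5) in TKA rats (0.30 ± 0.13 against sham, and 0.19 without them). The groups overlapped for both. The lysosomal nucleoside carrier *Slc29a3* was at 0.45 and -0.017 without TKA rats 2 and 6, and the fatty acid protein *Slc27a3*, at -0.38, was the lower member of the class.

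The symbols that name no carrier went opposite ways. *Slc7a6os*, named for its place opposite a carrier gene, measured 21.8 to 30.6 (median 28.01) CPM in naive, 25.4 to 37.6 (median 29.9) in sham, and 26.7 to 53.9 (median 37.6) in TKA rats. Its difference from naive rats was 0.52 ± 0.17, and 0.68 without TKA rats 2 and 6. A gene that lies opposite another can share reads with it if the counting ignored strand, which is not given in the sources used here. *Slc4a1ap*, an adaptor of an anion exchanger, measured 54.2 to 64.3 (median 60.8) CPM in naive, 56.4 to 66.7 (median 62.6) in sham, and 41.2 to 57.5 (median 54.4) in TKA rats (-0.25 ± 0.095 against sham).

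**Figure D5:**
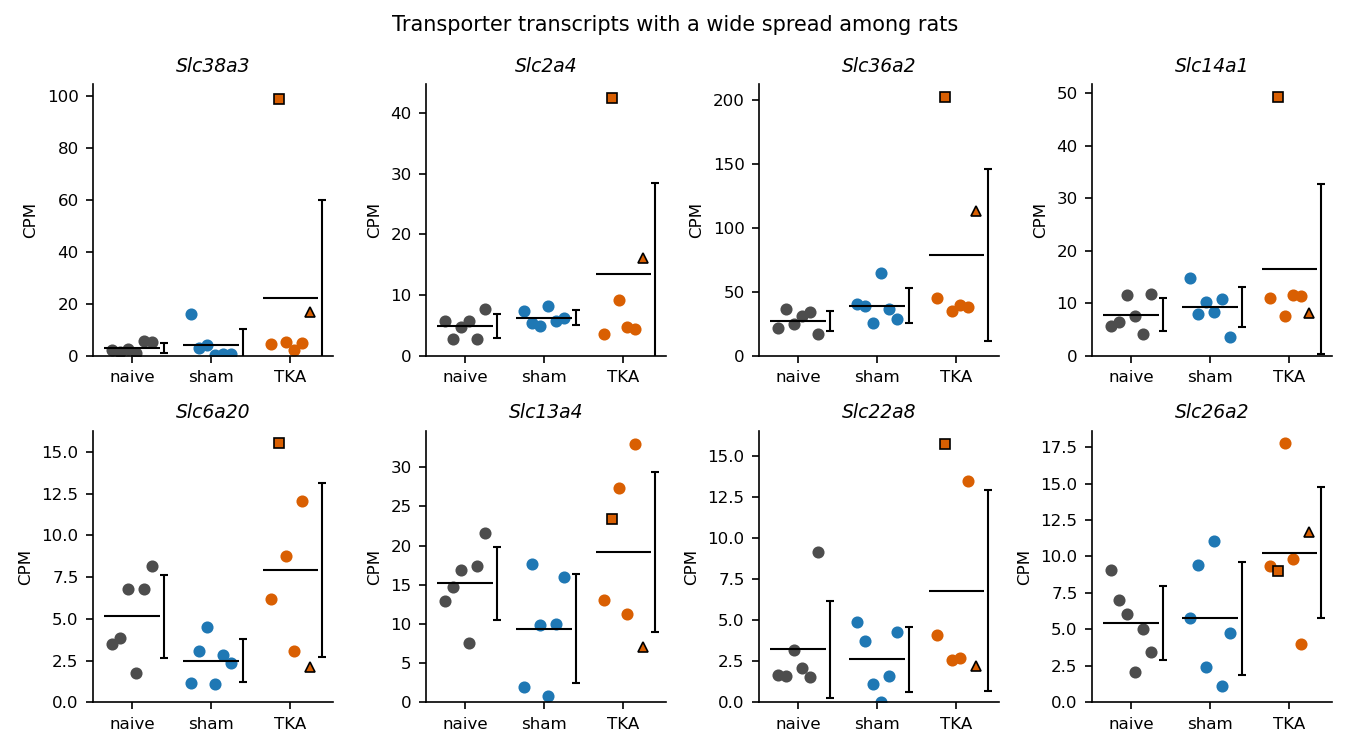
CPM in each rat for 8 transcripts with a wide spread, with horizontal lines at group means, bars for 1 SD that end at the axis where they would pass 0, TKA rat 2 as a square, and TKA rat 6 as a triangle. In the upper row TKA rat 2 is the highest rat, as with *Slc38a3* at 98.6 CPM, and in the lower row the high and low values come from several rats.

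Spread within a group was widest in TKA rats. The coefficient of variation over the 6 rats had a median of 16.0% over the 61 transcripts in naive, 19.9% in sham, and 40.2% in TKA rats. The steadiest were *Slc3a2* in naive rats (3.83%), *Slc44a1* in sham rats (2.99%), and *Slc25a25* in TKA rats (7.78%), and the least steady *Slc22a3* in naive rats (99.6%) and *Slc38a3* in sham (142.7%) and TKA rats (171.3%). TKA rat 2 was the highest of 18 rats for 30 of the 61 transcripts, beside 24.1% of 14097 transcripts with a mean of at least 20 counts, and the lowest for 17, beside 30% of them. TKA rat 6 was the highest for 3, beside 6.49% of all, and the lowest for 2, beside 5.16%. TKA rats 2 and 6 were the 2 highest rats for 20 transcripts and the 2 lowest for 10. These counts, like those of 1.5-fold differences, have no share over all transcripts beside them, so they describe the members only. At least a 1.5-fold difference from sham rats was seen upward for 20 transcripts with all rats, 10 without TKA rat 2, and 6 without TKA rats 2 and 6, which were *Slc1a5*, *Slc6a20*, *Slc10a1*, *Slc13a4*, *Slc22a8*, and *Slc26a2*. Downward the counts were 4 with all rats and 4 without both, though not of the same members. Without both *Slc46a2*, at -0.53, fell short of 1.5-fold and *Slc7a10*, at -0.64, reached it. The part of the other cell types in these differences was not tested.

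Between sham and naive rats the differences centered near 0. Of 61 transcripts 39 were higher and 22 lower than in naive rats with a median of 0.043, where 51.7% of 15153 transcripts were higher with a median of 0.0069. By edgeR none was called (0% of 15153 transcripts) and 4 had an unadjusted p under 0.05 (4.12% of all), *Slc43a2* (-0.25), *Slc6a20* (-1.04), *Slc2a12* (-0.64), and *Slc36a2* (0.52). DESeq2 with a prior (0 of all 15153 transcripts) and without (4 of them) and voom (0 of them) called 0 of the members as well. The list for this contrast had named 10 of the members, so these counts are again a description. No member had sham and naive rats without overlap, beside 0.0462% of all transcripts above and 0.106% below.

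The sexes were compared over all 18 rats with the group in the model. The naming did not use this contrast, but lists that rest on the TKA rats named 53 of the 61, and these rats are in it. None of the 61 transcripts passed in edgeR (0.0303% of 16475 transcripts did, and 0.0243% as higher in females). None passed with TKA rat 4 entered as male (12 of 16945 transcripts did) or left out (12 of 16874). None passed by DESeq2 without a prior (52 of 16475) or voom (43 of 16475). At an unadjusted p under 0.05 there were 3 (8.77% of all). *Slc35a5* was 0.19 ± 0.088 in females against males (edgeR adjusted p = 0.561), *Slc15a1* 1.37 ± 0.63 (adjusted p = 0.561), and *Slc30a4* -0.27 ± 0.13 (adjusted p = 0.569). Of the 10 amino acid carriers 9 were lower in rats labelled female, with a median of -0.31. Without TKA rat 2, a male, 8 were lower with a median of -0.13, and with TKA rat 4 entered as male 8 were with a median of -0.17. Over all members 38 of 61 were lower in females (median -0.055), 30 without TKA rat 2 (median 0.0056), and 33 with TKA rat 4 entered as male (median -0.015). Of all 16475 transcripts 50.8% were lower, with a median of -0.0044. In the 12 naive and sham rats alone 35 of the 61 were higher and 26 lower in females (median 0.025). None was called there, beside 22 of all 16055 transcripts. Of the 10 amino acid carriers 7 were lower in these 12 rats, with a median of -0.076. Over all 18 rats the widest gap was that of *Slc38a3*, -1.66 ± 0.81 (edgeR adjusted p = 0.583), and it was -0.55 without TKA rat 2.

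The levels of the 61 transcripts were also set against the 8 marker lists within the 12 naive and sham rats, with the group means removed, since the cell makeup of these libraries varies too. Of 488 relations none passed an adjusted p of 0.05 for Pearson's r and Spearman's rho (2-sided, 100000 permutations within groups, Benjamini-Hochberg over 976 coefficients), and 46 had an unadjusted permutation p under 0.05 for r, 14 of them with Schwann cell markers. The closest relation with the Schwann cell list was that of the phosphate carrier *Slc20a2*, with r = 0.883 (permutation p = 0.00021) and rho = 0.916 (permutation p = 9e-05), and an adjusted permutation p of 0.083 for each. Without the 2 rats farthest from the median of the list, sham rats 4 and 5, r was 0.774, and it was 0.790 in naive and 0.940 in sham rats alone. *Slc22a23* with the same list had r = 0.866 and rho = 0.902 (permutation p = 0.00123 and 0.00034, adjusted 0.178 and 0.083), and 0.792 without those rats. *Slc22a23* was lower and *Slc20a2* higher in TKA rats, and TKA rats 2 and 6, with the highest Schwann cell markers, were the 2 lowest rats for the former and the 2 highest for the latter.

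The sulfate carrier *Slc26a2* and the endothelial list of 3 genes had r = 0.871 and rho = 0.916 (permutation p = 0.00127 and 0.00033, adjusted 0.178 and 0.083), and r = 0.739 without sham rats 4 and 5. *Slc36a2* with the Schwann cell list had r = 0.831 (permutation p = 0.00196, adjusted 0.192), which was 0.931 without these. *Slc13a4* and the list of connective tissue and nerve sheath had r = 0.844 and rho = 0.762 (permutation p = 0.00441 and 0.0095, adjusted 0.331 and 0.35), and r was 0.817 without naive rat 4 and sham rat 1. No relation passed after correction over these 12 rats, which does not show that there is none.

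Other genes of the same pathways were read from lists of known function, among the transcripts with a name. These names come from the study's tables sorted by its own test. The paper lists *Myc* among its differences between TKA and sham rats. So the values of these genes are a description, as with the members. Of the 8 genes of the amino acid stress response, 7 could be tested, 6 were higher in TKA than in naive and in sham rats, and none was called by edgeR. Of all transcripts tested 52.2% were higher than in naive and 51.5% than in sham rats, and 0.0857% and 0% were called. *Atf4*, the transcription factor of that response, measured 176 to 218 CPM (median 202) in naive, 180.2 to 231 (median 209) in sham, and 199 to 294 (median 231) in TKA rats, a log2 difference of 0.29 from naive rats. *Myc*, a regulator of growth, ran 1.48 to 3.29 CPM in naive, 1.94 to 3.80 in sham, and 4.22 to 10.8 in TKA rats, which lay above all others, a difference of 1.73 from naive rats (edgeR adjusted p = 0.0671). All TKA rats lay above all naive rats for 1.16% of all transcripts, and above all sham rats for 0.444%. Of 4 genes of glucose use all were higher in TKA than in naive and in sham rats, and none was called. Against naive rats *Hk2* was at 1.49, *Hif1a* at 0.42, *Pdk1* at 0.10, and *Ldha* at 0.047. *Hk2*, which traps glucose in the cell, ran 4.36 to 7.04 CPM in naive, 4.47 to 10.9 in sham, and 4.51 to 29.2 (median 11.95) in TKA rats. Its values in TKA rats 2 and 6 were 29.2 and 27.4 CPM. *Ldha* had its lowest value of 18 rats, 380 CPM, in TKA rat 2.

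Members near the minimum of 20 counts are given once. Just inside were *Slc15a1*, with a mean of 23.1 counts, *Slc8a2* ENSRNOT00000086396, with 23.3, and *Slc10a1*, with 28.1. Just outside were *Slc27a5*, with 19.7, a second transcript of *Slc12a7*, with 10.9, and *Slc7a9*, with 9.22. The other 14 of the 17 named transcripts under the minimum had fewer counts still.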

How the data were processed

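The authors used HISAT2 to place paired-end reads of 150 bp on rn6, counted them per Ensembl transcript with featureCounts, deposited these raw counts, and tested them with DESeq2. Tool versions, the annotation, and how strand and shared reads were handled are not given in the sources used here. All 18 count columns were used and 0 were left out. The authors' fold-changes and p-values were not used, and their tables gave only symbols. Members, lists, and tests were chosen with earlier results of these data known.

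Each pair of groups was fitted with edgeR 4.0.16 in R 4.3.3 (filterByExpr, TMM, quasi-likelihood F test, Benjamini-Hochberg over all transcripts tested), and all 61 members passed the filter. Calls needed an adjusted p under 0.05 and at least a 1.5-fold difference. Log2 fold-changes are given ± a standard error, the value divided by the square root of F. CPM are scaled by TMM over the 18 rats, n = 6 a group, with no division by length, so levels of different genes are not compared. Log2 CPM for correlations used a prior count of 2. Sex was tested with the group as covariate.

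Named by rule were, in each class, the 2 members with the most counts and the 2 with the largest change from naive rats, and those nearest the minimum of 20 counts. Other members were named after their values were seen. Alternatives were DESeq2 1.42.0, limma 3.58.1 voom with quality weights, edgeR with the size factors of DESeq2, other filters, sex as a covariate, the rat number as a block, all 3 groups in one fit, each rat left out, and, after the data were seen, TKA rats 2 and 6 left out. The fits were tested on simulated data. No libraries were alike: chi-square per degree of freedom was 10.6 for the closest pair. Each rat is labelled as a separate animal. The values of 1 member are not reported here, though it stays in the counts.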

Additional observations from a re-analysis of the deposited data

Results flagged for a closer look

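In 96 sets of 6 values (32 transcripts in 3 groups, as log2 CPM) the highest or lowest rat was tested for standing apart from the others, which chance alone would give in about 4.8 sets of transcripts taken at random. These 32 were named in part for their differences between the groups, so the counts describe them and cannot be read against chance. It did so in 8 sets, 5 of them in TKA rat 2. TKA rat 2 was high for *Slc14a1* at 5.62 (next rat 3.55), *Slc41a1* at 7.32 (next 6.35), and *Slc10a1* at 2.09 (next 0.89). It was low for *Slc17a6* at 4.69 (next 7.61) and *Slc6a17* at -1.17 (next 0.99). The others were *Slc28a2* in naive rat 2 at 0.78 (next 1.85), *Slc25a4* in sham rat 4 at 9.76 (next 9.96), and *Slc7a6os* in naive rat 3 at 4.45 (next 4.76).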

How the results depend on the processing

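Over all transcripts, the alternatives called at most 64 for TKA against sham rats, 4 for sham against naive rats, and 52 for the sexes. The count of solute carrier transcripts called was 0 under every alternative for TKA against sham rats, sham against naive rats, and the sexes. For TKA against naive rats it was 0 with edgeR but 8 with DESeq2 without a prior, 6 with a prior, 1 with voom, 2 with all 3 groups in one fit, and 1 without TKA rats 2 and 6, the last chosen after seeing the data. The 2 were *Slc7a5* and *Slc39a1*, and the 1 was *Slc7a6os* both times. Leaving out 1 rat at a time, the count ran from 0 to 2, the 2 without TKA rat 5. The cause was not tested. The median log2 fold-change against naive rats was 0.45, and 0.20 without TKA rats 2 and 6. It ran from 0.25 to 0.44 against sham and from 0.28 to 0.49 against naive rats with 1 rat left out. With DESeq2's prior *Slc38a3* was at 0.44 against sham rats, and the cause was not tested. No relation with a marker list passed under any alternative, with a lowest adjusted permutation p between 0.0586 and 0.629. Correlations of the deviations of rats of the same number ran from -0.05 to 0.219, the highest for number 5 of sham and TKA rats. Of the 6 numbers only 5 was always closest to its own. What rats of a number share beyond it cannot be told from these correlations. With the rat number as a replicate block 0 of the 61 transcripts were called in each pair of groups (and 2 of all transcripts, those of TKA against naive rats), and the medians were 0.34 against sham and 0.38 against naive rats and 0.037 for sham against naive rats. Counts of about 20 a rat limit the scarcest members.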

Other observations

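The 17 named solute carrier transcripts under the minimum had between 0.222 (*Slc6a18*) and 19.7 mean counts a rat and were named by the list for sham against naive rats. Among them were 3 transcripts of *Slc17a7*, the vesicular glutamate transporter VGLUT1, the most abundant with a mean of 9 counts in naive, 5.67 in sham, and 2.5 in TKA rats. The dopamine transporter *Slc6a3* had 1.33, 0.833, and 1 counts and the kidney glucose carrier *Slc5a2* 1.83, 4.33, and 1. Differences at these counts were not tested here.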
